A study of Mus musculus with 24 samples.

Results

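The H3K4me3 mark was followed at 10 genes known for their part in building or running the cerebellum: the transcription factors Zic1, Zic2, Zic4, En1, En2, Barhl1, Barhl2 and Pax6, and the secreted synaptic proteins Cbln1 and Cbln3. The tissue was the cerebral cortex of the mouse, so the values describe the promoters of these genes outside the tissue in which they are best known. A region was taken for a gene where it overlapped an annotated transcription start site (TSS) of that gene on mm9. Of the 17993 regions with counts, 6 met this rule, and of the 10 genes, 6 had at least 1 such region: Zic1 and Zic4 shared a region, En2, Barhl2 and Cbln1 had 1 region each, and Pax6 had 2. Zic2, En1, Barhl1 and Cbln3 had none.

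The study asked whether chromatin of a chosen cell type can be read out of a mixed tissue by tandem ChIP-Seq (tChIP-Seq). Both mouse lines carry a FLAG-tagged histone H2B cassette under the CAG promoter, knocked into the Rosa26 locus on a C57BL/6 background. In Rosa H2B-FLAG mice (Rosa CAG-H2B-FLAG in the labels), recombination by Vasa-Cre made the tagged histone constitutive and ubiquitous, and the line was kept as heterozygotes. In Camk2a H2B-FLAG mice (Rosa26 CAG-floxed-pA-H2B-FLAG/ CaMKCreERT2), double-heterozygous males received 1 mg of tamoxifen a day for 5 days at an age of 8 weeks and were sampled a month later, so that only Camk2a-positive neurons carry the tag. The age and treatment of the Rosa H2B-FLAG animals are not given in the sources used here. Each lysate pooled cortex of 2 animals. Single ChIP-Seq precipitated H3K4me3 alone and so reads all cells of the cortex in either line, whereas tChIP-Seq precipitated FLAG first and H3K4me3 second. There were 3 libraries in each of the 4 groups, called here Rosa single, Rosa tChIP, Camk2a single and Camk2a tChIP.

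H3K4me3 is the trimethylated form of lysine 4 of histone H3, and it accumulates around the start sites of genes that are transcribed or poised for transcription, most of all where CG dinucleotides are dense. Zic, engrailed (En), Barhl and Pax6 proteins bind DNA: engrailed proteins pattern the midbrain and anterior hindbrain, Zic and Pax6 proteins act in the granule cell lineage, and Barhl proteins act in neurons born from the rhombic lip. Cbln1 is released by granule cells and helps to join the presynaptic side of their synapses to Purkinje cells, and Cbln3 is its partner in granule cells. Several of these genes also work elsewhere: Pax6 in cortical progenitors, Zic genes in the dorsal neural tube, the septum and the meninges, and Cbln1 in some forebrain neurons.

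The 250 bases before a start site are shown for 2 genes with a region and 2 without, since they differ widely in CG density on both sides. They were read from mm9 in the direction of the gene, with each CG in capitals. The Zic4 window (chr9:91257001-91257250, plus strand) lies inside the shared Zic1 and Zic4 region. The Barhl2 window (chr5:106887470-106887719, minus strand) lies inside the Barhl2 region. The Zic2 window (chr14:122874354-122874603, plus strand) and the Cbln3 window (chr14:56503094-56503343, minus strand) belong to genes without a region.
Zic4: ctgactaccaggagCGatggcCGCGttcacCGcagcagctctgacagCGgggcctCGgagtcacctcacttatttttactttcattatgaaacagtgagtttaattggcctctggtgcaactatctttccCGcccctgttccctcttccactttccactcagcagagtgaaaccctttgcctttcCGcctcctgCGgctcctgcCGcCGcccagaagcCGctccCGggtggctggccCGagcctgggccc
Barhl2: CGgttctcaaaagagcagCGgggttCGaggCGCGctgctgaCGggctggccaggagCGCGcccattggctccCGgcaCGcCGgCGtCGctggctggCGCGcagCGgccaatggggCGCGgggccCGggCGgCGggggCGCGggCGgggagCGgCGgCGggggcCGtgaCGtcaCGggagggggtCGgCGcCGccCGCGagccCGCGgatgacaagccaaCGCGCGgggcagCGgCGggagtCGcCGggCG
Zic2: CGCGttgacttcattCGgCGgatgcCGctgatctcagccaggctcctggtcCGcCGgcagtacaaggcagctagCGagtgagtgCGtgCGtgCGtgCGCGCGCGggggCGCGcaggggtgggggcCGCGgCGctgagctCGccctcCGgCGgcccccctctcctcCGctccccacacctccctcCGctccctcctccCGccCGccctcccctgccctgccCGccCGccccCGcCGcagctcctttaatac
Cbln3: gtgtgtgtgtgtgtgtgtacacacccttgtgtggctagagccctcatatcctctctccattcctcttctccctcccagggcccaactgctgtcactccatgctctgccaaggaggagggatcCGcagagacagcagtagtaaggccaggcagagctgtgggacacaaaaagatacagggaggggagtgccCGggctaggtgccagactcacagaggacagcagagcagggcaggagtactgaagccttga
The Barhl2 window held 45 CG, more than 99.4% of the 45999 such windows before protein-coding start sites, whose median was 9. The Zic2 window held 31 CG, the Zic4 window 14 and the Cbln3 window 2. The Zic2 start site thus had no region although its window held more CG than 92.5% of all windows, and the Cbln3 window held more than 14.0% of them. Over whole regions, Barhl2 had 128 CG per kb and En2 106, denser than 99.9% and 99.5% of regions that overlap a start site, against a median of 43.6. The Zic1/Zic4 region was nearest to that median, with 49.1.

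The Zic1/Zic4 region (chr9:91255540-91260512) spanned 4973 bp and was wider than 96.7% of the 13404 regions that overlap a start site. Zic1 and Zic4 are neighbours read in opposite directions, and the region covered 1 of 3 annotated Zic1 start sites and 1 of 12 annotated Zic4 start sites, so its counts cannot be divided between the genes. It ended just before the outermost Zic1 start site at position 91260648, and 59.5% of its length was exonic and 40.5% intronic in at least 1 transcript. The En2 region (chr5:28491683-28493930, 2248 bp) held the single annotated En2 start site, was 66.2% exonic and reached upstream of the gene with 24.6% of its length. The Barhl2 region (chr5:106887073-106887916) was short, at 844 bp, and was divided between exon, at 47.0%, and sequence outside genes, at 53.0%. The Cbln1 region (chr8:89995641-89998058, 2418 bp) held 2 of 3 Cbln1 start sites and also those of C230036H16Rik and Gm2694, whose signal cannot be separated from that of Cbln1. The upstream Pax6 region (chr2:105508972-105510490, 1519 bp) held 4 Pax6 start sites and that of the antisense gene Pax6os1, and the downstream Pax6 region (chr2:105514647-105517297, 2651 bp) held 8 Pax6 start sites.

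Among the 4 genes without a region, En1 and Cbln3 were near misses and Zic2 and Barhl1 were not. A region of 489 bp (chr1:122499345-122499833) without any start site began 350 bp from the En1 start. The region of Khnyn, which neighbours Cbln3, began 263 bp from the nearest Cbln3 start site. The region nearest to Zic2 lay 9388 bp away at Zic5, the Zic gene beside it, and the region nearest to Barhl1 lay 70845 bp away at Ddx31 and Gtf3c4. The absence of a region was not read as the absence of the mark, since the region list covered 59.8% of the 22238 annotated protein-coding genes and also left out the forebrain regulator Tbr1.

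Depth differed between the groups, with total counts in regions of 6316125 to 8644574 in Rosa single, 1457261 to 1828371 in Rosa tChIP, 4063200 to 4233144 in Camk2a single and 2709729 to 3049130 in Camk2a tChIP. Values are therefore given as CPM, the counts scaled to library totals that were adjusted by the TMM method, and a change was called at an adjusted p under 0.01. The labelled tissue was checked against marker lists: 5 of 6 forebrain genes had a region, among them the cortical regulators Emx1 and Neurod6, whereas none of 7 Hox and related hindbrain genes had one. Of the cerebellar cell markers, 5 of 9 granule cell genes and 7 of 11 Purkinje cell genes had a region, while Gabra6 and Atoh1 of the granule lineage and Pcp2 of Purkinje cells had none. Of 4 thalamic genes, Tcf7l2 and Lef1 had regions, and Lhx9 and Calb2 did not, with a summed level of the pair with regions of 158 to 173 CPM in Rosa single and 148 to 166 CPM in Camk2a single. For the check of the line, Camk2a had 70.0 ± 3.92 CPM in Rosa tChIP and 339 ± 13.8 CPM in Camk2a tChIP (SD, n = 3 each). Camk2a also differed between the lines without the tandem step, with 174 ± 2.42 CPM in Rosa single and 250 ± 12.1 CPM in Camk2a single (log2 fold change 0.52, adjusted p = 3.74e-27, edgeR with Benjamini-Hochberg adjustment), so it is no check of the tandem step alone.

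The first comparison asked how chromatin from Camk2a-positive neurons differs from chromatin of all cells after tandem purification. The mark at Zic1/Zic4, En2, Barhl2 and both Pax6 regions was lower in Camk2a tChIP than in Rosa tChIP, and the mark at Cbln1 was higher. The fall was 4.64-fold at Zic1/Zic4 and between 1.68-fold and 3.03-fold at the other 4 regions, and the rise at Cbln1 was 1.26-fold. Thus 5 of the 6 regions were called lower, where 14.6% of all regions were called lower, and 1 was called higher, where 17.0% of all regions were. The median log2 fold change of the 6 regions was -1.13, beside 0.00 for all regions. Libraries of the groups did not overlap in any of the 6, where 23.6% of all regions were lower without overlap and 24.8% higher.

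At Zic1/Zic4 the Rosa tChIP libraries held 83.5, 76.3 and 79.4 CPM. The Camk2a tChIP libraries held 20.7, 15.5 and 14.7 CPM. Every Camk2a tChIP library thus lay far below every Rosa tChIP library, and also below the 6 single ChIP libraries, which ran from 48.7 to 58.3 CPM. The log2 fold change was -2.21 ± 0.13 (SE, n = 3 against 3, adjusted p = 8.78e-26, edgeR quasi-likelihood test with Benjamini-Hochberg adjustment), and only 1.72% of all regions had a lower log2 fold change. The counts behind the 3 Camk2a tChIP values were 63, 43 and 40 reads. In tissue mixtures such as these, fewer tagged cells that carry the mark and less mark per cell cannot be told apart. The study placed the share of tagged cells near its technical limit, and signal carried over from untagged cells cannot be separated either.

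En2, which is needed for the folding pattern of the cerebellum, gave 55.8, 55.5 and 42.6 CPM in Rosa tChIP. It gave 23.0, 18.4 and 21.7 CPM in Camk2a tChIP. The groups did not overlap, and the lowest Rosa tChIP library, replicate 3, still stood above every other library of the other groups. The log2 fold change was -1.29 ± 0.141 (SE, adjusted p = 9.65e-13, edgeR with Benjamini-Hochberg adjustment).

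Pax6, a paired-box factor of cortical progenitors and cerebellar granule cells, behaved alike at its 2 regions in direction. The upstream region had 18.3, 22.1 and 19.0 CPM in Rosa tChIP and 5.25, 5.77 and 8.47 CPM in Camk2a tChIP. The downstream region had 55.3, 62.6 and 54.5 CPM in Rosa tChIP and 28.2, 27.4 and 31.7 CPM in Camk2a tChIP. Neither region showed any overlap between the groups. The log2 fold change was -1.60 ± 0.235 upstream (adjusted p = 1.6e-08) and -0.98 ± 0.125 downstream (SE, adjusted p = 2.25e-10, edgeR with Benjamini-Hochberg adjustment), and the difference between the regions was not tested. A further region within the gene (chr2:105528095-105528773), within 1000 bp of a Pax6 start site but overlapping none, had 5 to 26 reads a library and a log2 fold change of 0.11 ± 0.364 (adjusted p = 0.844).

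Barhl2, a homeobox factor of rhombic-lip derived and dorsal spinal neurons, was the least covered of the 6 regions, with 6 to 32 reads a library. It had 15.1, 18.5 and 13.8 CPM in Rosa tChIP and 9.51, 6.86 and 11.8 CPM in Camk2a tChIP. The groups did not overlap, but the highest Camk2a tChIP library came close to the lowest Rosa tChIP library. The log2 fold change was -0.75 ± 0.232 (SE, adjusted p = 0.0063, edgeR with Benjamini-Hochberg adjustment). The call rested on single libraries: it was lost without Rosa tChIP replicate 1 (adjusted p = 0.0153) or 2 (0.0608) and without Camk2a tChIP replicate 1 (0.0119) or 2 (0.0554), as it was in DESeq2 (0.0468).

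Cbln1 was the exception among the 6. Its region had 62.6, 67.4 and 65.6 CPM in Rosa tChIP and 85.0, 86.6 and 73.3 CPM in Camk2a tChIP. All 3 Camk2a tChIP libraries lay above all 3 Rosa tChIP libraries, with replicate 3 closest to them. The log2 fold change was 0.34 ± 0.0962 (SE, adjusted p = 0.00296, edgeR with Benjamini-Hochberg adjustment). The call was lost without Rosa tChIP replicate 1 (adjusted p = 0.0269) and without Camk2a tChIP replicate 1 (0.0164) or 2 (0.0218), in DESeq2 (0.03) and with library totals alone (0.0205), while the direction was the same in each.

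**Figure D1:**
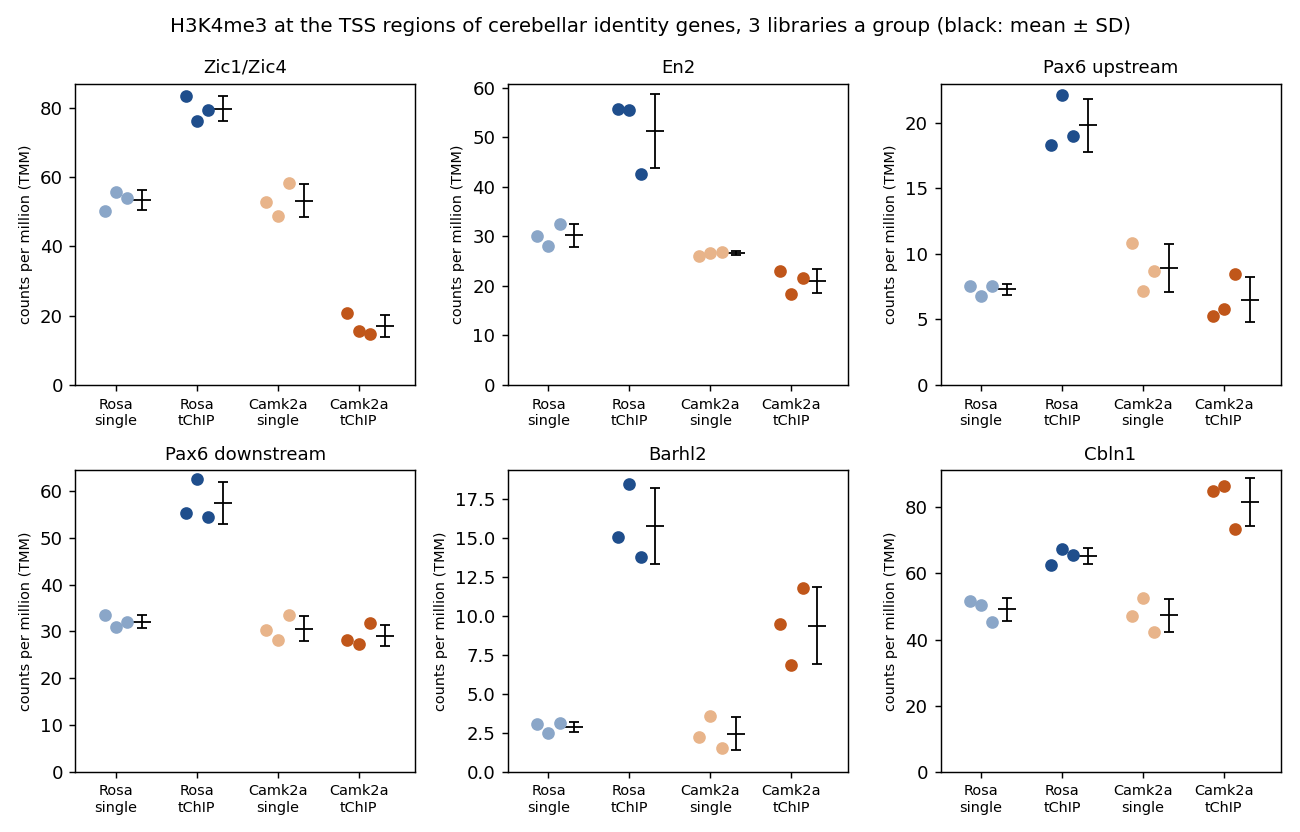
CPM (y axis, linear from 0, TMM scaling) in each of the 3 libraries of the 4 groups (x axis) for the 6 regions. Coloured points are libraries, and the black mark beside them is the mean with its SD. At Zic1/Zic4 the Camk2a tChIP libraries sit between 14.7 and 20.7 CPM while the lowest of the others holds 48.7 CPM, and at Cbln1 the Camk2a tChIP libraries are the highest.

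These regions are weakly marked, and weakly marked regions were called more often than strongly marked ones. When the regions that overlap a start site were divided into 5 classes of equal size by mean CPM per kb over the 12 libraries, 5 of the 6 regions fell into the lowest class (3.3 to 17.1 CPM per kb) and Cbln1 into the next. In that lowest class 35.0% of regions were called lower in Camk2a tChIP against Rosa tChIP and 16.7% higher, with a median log2 fold change of -0.25. In the class of Cbln1 19.8% were called lower and 27.1% higher, and in the class of most strongly marked regions 6.16% and 8.02%. The class means include the libraries compared here and below, so the class of a region and its calls are not independent. The part of this weak marking in the count of 5 regions called lower was not tested.

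In single ChIP-Seq, which reads all cells in both lines, none of the 6 regions differed by the same test. Over all regions 2.15% were called in either direction in this comparison. Zic1/Zic4 had 53.3 ± 2.88 CPM in Rosa single and 53.2 ± 4.84 CPM in Camk2a single (SD, n = 3 each), so that the log2 fold change was -0.01 (95% interval -0.15 to 0.14). Cbln1 had 49.1 ± 3.49 and 47.3 ± 5.07 CPM, and the downstream Pax6 region had 32.1 ± 1.38 and 30.6 ± 2.64 CPM. The lowest adjusted p was that of En2 (0.300, edgeR with Benjamini-Hochberg adjustment), whose libraries did not overlap, as in 25.0% of all regions: 30.0, 28.0 and 32.6 CPM in Rosa single, and 26.1, 26.7 and 26.9 CPM in Camk2a single. The intervals were wide where counts were low, from -0.84 to 0.40 at Barhl2 and from -0.07 to 0.65 at upstream Pax6. Without adjustment 0 of the 6 had a p under 0.05, and DESeq2 also called none of the 6.

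Because single and tandem libraries came from the same lines, tChIP could be set beside single ChIP in each line. In Camk2a H2B-FLAG mice the tandem step also selects Camk2a-positive neurons, and these effects cannot be told apart. The study also found sites that differed between single and tandem ChIP in Rosa H2B-FLAG mice. It proposed several possible biases of the method and therefore compared mainly tChIP between the lines. The comparisons in this and the next paragraph use the same libraries as those above and are not independent of them. The labels do not say whether single and tandem libraries of a line with the same replicate number came from the same lysate, and they were tested as independent. In Rosa H2B-FLAG mice, in which nearly all cells carry the tag, all 6 regions were higher in tChIP than in single ChIP, where 24.7% of all regions were called higher and 22.5% lower. The rise was 1.33-fold at Cbln1, 1.51-fold at Zic1/Zic4, 1.74-fold at En2, 1.81-fold at downstream Pax6, 2.74-fold at upstream Pax6 and 5.54-fold at Barhl2, and the libraries overlapped in none of the 6, where 30.2% of all regions were higher without overlap. For Barhl2 this took the mean from 2.89 ± 0.327 to 15.8 ± 2.43 CPM (SD, n = 3 each, log2 fold change 2.47 ± 0.251 SE, adjusted p = 3.15e-21, edgeR with Benjamini-Hochberg adjustment). By log2 fold change it ranked 83 of 17993 regions in this comparison. The regions are peaks that the authors called in these data, and how the calls were merged is not given. A region weak in single ChIP may be listed through its tChIP signal alone, which limits what this rank can show. In the class of most weakly marked regions 55.6% were called higher in Rosa tChIP, against 1.72% in the class of most strongly marked ones, and the part of weak marking in the rise of the 6 regions was not tested.

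In Camk2a H2B-FLAG mice the 6 regions parted. Barhl2 and Cbln1 were higher in tChIP than in single ChIP, where 25.3% of all regions were called higher, and Zic1/Zic4 was lower, where 22.6% were called lower. At Zic1/Zic4 the Camk2a single libraries had 52.7, 48.7 and 58.3 CPM, each far above every Camk2a tChIP library (log2 fold change -1.63 ± 0.123 SE, adjusted p = 2.29e-27). Cbln1 had 47.0, 52.5 and 42.4 CPM in Camk2a single, all below its Camk2a tChIP libraries (log2 fold change 0.79 ± 0.0845 SE, adjusted p = 4.96e-16, both edgeR with Benjamini-Hochberg adjustment). Barhl2 had 2.22, 3.58 and 1.5 CPM in Camk2a single, all below its Camk2a tChIP libraries, and the log2 fold change was 1.92 ± 0.294. En2 at -0.33 (95% interval -0.60 to -0.07, adjusted p = 0.0278), upstream Pax6 at -0.46 (-0.94 to 0.01, adjusted p = 0.0908) and downstream Pax6 at -0.07 (-0.31 to 0.16, adjusted p = 0.618) did not pass the threshold.

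**Figure D2:**
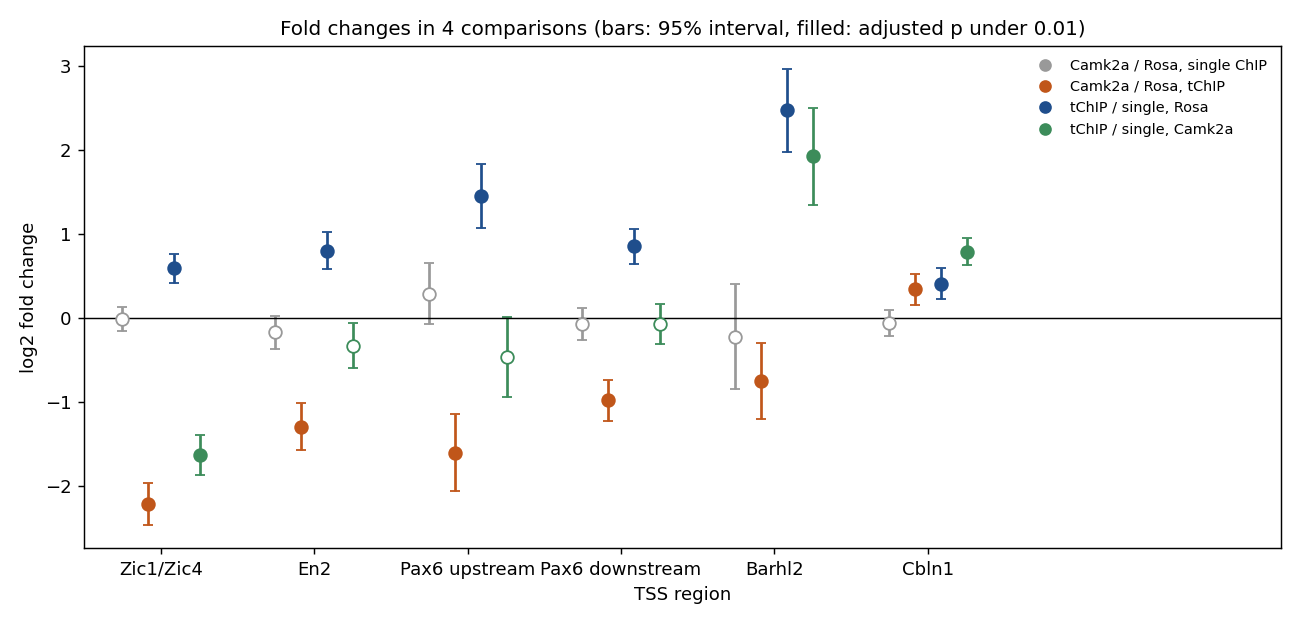
Log2 fold change (y axis) of the 6 regions (x axis) in 4 comparisons, with bars of the 95% interval (1.96 SE on either side). Filled points passed an adjusted p under 0.01 and open points did not. The single ChIP comparison of the lines stays near 0 for every region, and the tChIP comparison runs from -2.21 at Zic1/Zic4 to 0.34 at Cbln1.

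Whether the lines differed more in tChIP than in single ChIP was tested as an interaction over the 12 libraries. The difference of the log2 fold changes was -2.22 ± 0.153 for Zic1/Zic4 (SE, adjusted p = 1.23e-33) and -1.90 ± 0.304 for upstream Pax6 (adjusted p = 1.49e-08, edgeR with Benjamini-Hochberg adjustment). En2 followed with -1.12 and downstream Pax6 with -0.91. The 4 regions were called lower, where 13.2% of all regions were, and Cbln1 was called higher at 0.39 ± 0.125 (adjusted p = 0.00807), where 13.7% were. In the class of most weakly marked regions, which holds these 4, 36.2% were called lower, and in the class of Cbln1 23.1% were called higher. Barhl2 at -0.53 (95% interval -1.33 to 0.26, adjusted p = 0.334) did not pass. The Cbln1 call was lost without 9 of the 12 libraries taken 1 at a time: adjusted p was 0.0228 without Rosa single replicate 1, 0.0207 without replicate 2, 0.0351, 0.0113 and 0.0153 without Rosa tChIP replicates 1, 2 and 3, 0.0157 and 0.0493 without Camk2a single replicates 1 and 3, and 0.0266 and 0.0355 without Camk2a tChIP replicates 1 and 2.

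Per kb of region, Cbln1 had the highest level of the 6 in each of the 4 groups, and its libraries did not overlap those of the next region in any of them. Its mean was 20.3 CPM per kb in Rosa single, 27.0 in Rosa tChIP, 19.6 in Camk2a single and 33.8 in Camk2a tChIP, while the median region at a start site had 28.7 CPM per kb over all libraries. The order below Cbln1 changed between groups. In Rosa single it was En2 (13.4), downstream Pax6 (12.1), Zic1/Zic4 (10.7), upstream Pax6 (4.8) and Barhl2 (3.42), with overlap between libraries of En2 and downstream Pax6 alone. In Rosa tChIP, En2 (22.8), downstream Pax6 (21.7), Barhl2 (18.7) and Zic1/Zic4 (16.0) followed, each overlapping the next of these, and upstream Pax6 (13.0) was lowest. Camk2a single kept the order of Rosa single, with En2 (11.8), downstream Pax6 (11.5) and Zic1/Zic4 (10.7) overlapping in turn and upstream Pax6 (5.86) and Barhl2 (2.88) apart below them. In Camk2a tChIP, Barhl2 (11.1, libraries from 8.12 to 14.0) overlapped both downstream Pax6 (11.0) and En2 (9.36), which did not overlap each other, and upstream Pax6 (4.28) and Zic1/Zic4 (3.41) overlapped at the bottom.

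The Zic genes stand in pairs in the genome, Zic1 beside Zic4 and Zic2 beside Zic5, and the regions around both pairs were lower in Camk2a tChIP. The region that lay within 1000 bp of Zic4 start sites but over none (chr9:91275259-91277072) had 25.0, 28.0 and 23.6 CPM in Rosa tChIP and 5.25, 5.77 and 5.53 CPM in Camk2a tChIP. These groups stood well apart and the log2 fold change was -2.20 ± 0.224 (SE, adjusted p = 4.26e-14, edgeR with Benjamini-Hochberg adjustment), close to that of the Zic1/Zic4 region itself. Within 60 kb of Zic2, the Zic5 region had 153 ± 11.0 CPM in Rosa tChIP and 31.1 ± 3.26 CPM in Camk2a tChIP (SD, n = 3 each), and its log2 fold change was -2.28 (adjusted p = 7.08e-34). The regions of Gm5089 (-2.01) and Gm10837 (-3.41), which lie on either side of Zic2, were also called lower. The region of Pcca, 53576 bp beyond Zic2, had 60.9 ± 2.95 and 53.5 ± 2.64 CPM and was not called (-0.18, adjusted p = 0.187).

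**Figure D3:**
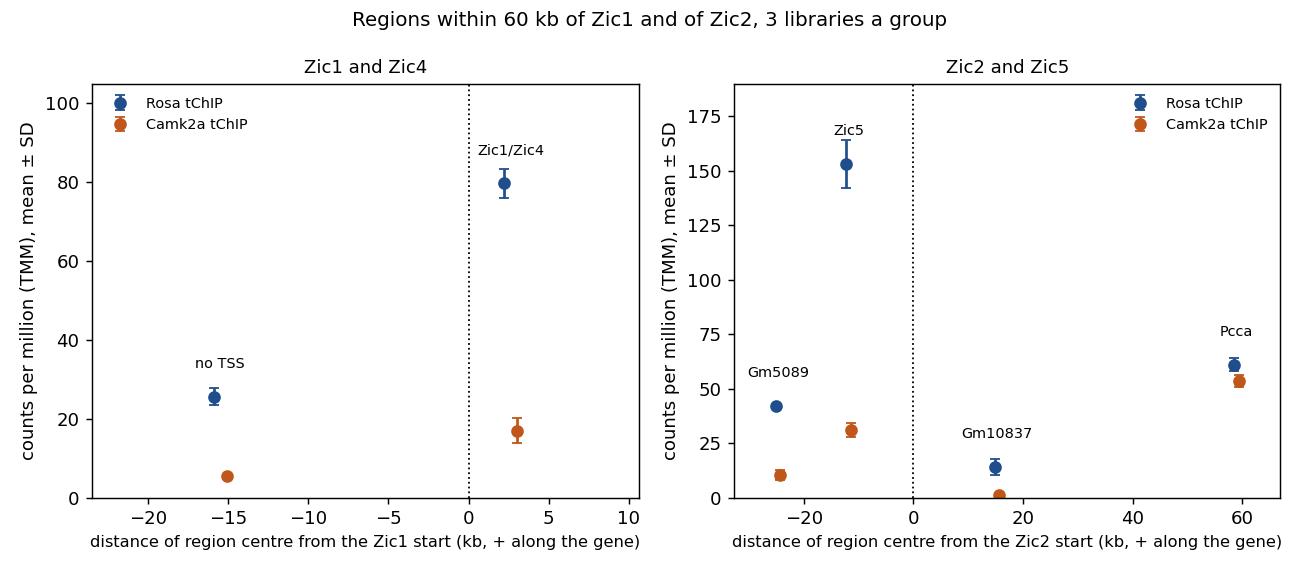
Mean CPM with SD (y axis, 3 libraries a group) of each region within 60 kb of Zic1 (left) and Zic2 (right) against the distance of its centre from the gene's start in kb (x axis, positive along the gene, dotted line at the start). Rosa tChIP and Camk2a tChIP points of a region are drawn slightly apart. Camk2a tChIP lies below Rosa tChIP at Zic1/Zic4, at the region near Zic4 start sites, at Zic5, at Gm5089 and at Gm10837, and the groups are close at Pcca.

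The near misses of En1 and Cbln3 behaved differently from each other. The short region behind the En1 start had 8.87, 8.95 and 10.5 CPM in Rosa tChIP and 4.92, 5.41 and 2.58 CPM in Camk2a tChIP, from 7 to 17 reads a library. The groups did not overlap and the log2 fold change was -1.10 ± 0.315 (SE, adjusted p = 0.00299, edgeR with Benjamini-Hochberg adjustment), a call that was lost without Rosa tChIP replicate 3 (0.0174) or Camk2a tChIP replicate 3 (0.0302) and in DESeq2 (0.0256). The Khnyn region beside Cbln3 had 88.0 ± 8.02 CPM in Rosa tChIP and 78.9 ± 6.68 CPM in Camk2a tChIP (SD, n = 3 each) and was not called (-0.14, 95% interval -0.31 to 0.04, adjusted p = 0.242).

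The regions most like Zic1/Zic4 over the 12 libraries, by Pearson's r of log2 CPM among 12578 regions at start sites with at least 10 CPM on average, were those of Cd9 (0.995), Sox21 (0.993), Kdm2b and Orai1 (0.993), Slc9a3r1 (0.992) and Nrarp (0.991). For the downstream Pax6 region they were Six5 (0.983), Lhx6 (0.981), Tor3a (0.981), Itpr3 (0.974) and Zfp677 (0.974). These values describe 12 libraries in 4 groups that differ in depth and were scaled together. The regions named are those with the highest r among the 12578 compared, and their likeness was not tested.

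Other genes of the cerebellum did not share a direction in Camk2a tChIP against Rosa tChIP. In this comparison 17.0% of all regions were called higher and 14.6% lower. Of 9 granule cell genes, 5 had a region: 2 rose, 2 fell and Etv1 did not pass (-0.06), which was also the median. Neurod1, a differentiation factor shared with cortical neurons, rose from 32.1 ± 4.69 to 89.2 ± 3.59 CPM, and Cadps2, which acts in vesicle release, rose from 94.0 ± 5.85 to 149 ± 2.83 CPM (SD, n = 3 each). Zic5 (-2.28), of the same family as Zic1, and Grin2c (-1.60), a subunit of NMDA receptors, fell. Of 11 Purkinje cell genes, 7 had a region, of which 3 rose and 1 fell, with a median of 0.07: Calb1, a calcium buffer that cortical neurons also express, rose by 1.54 and Itpr1 by 0.41, Lhx1 fell by 1.74, and Foxp2 gave -0.13 (adjusted p = 0.297). Of 11 genes of the isthmic organizer, the signalling centre at the border of midbrain and hindbrain, 3 had a region, and none was called. These 3 were Pax2 (0.02), Fgf8 (-0.03) and Fgf17 (0.77, adjusted p = 0.0429, edgeR with Benjamini-Hochberg adjustment). Their summed level was 6.08 to 7.04 CPM in Rosa single and 27.1 to 40.7 CPM in Rosa tChIP. It was 6.4 to 7.23 CPM in Camk2a single and 32.8 to 39.0 CPM in Camk2a tChIP. As at Barhl2, each of the 3 was called higher in tChIP than in single ChIP in both lines. In the class of most weakly marked regions, which holds these 3, 55.6% were called higher in Rosa tChIP and 35.4% in Camk2a tChIP. The cause of the rise was not tested.

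Cbln1 moved in the direction of its relatives and partners, although its call was lost in 5 of 13 alternatives. Its region also holds start sites of C230036H16Rik and Gm2694. All 5 genes on a list of other cerebellins, neurexins and delta glutamate receptors had a region. All 5 were called higher in Camk2a tChIP against Rosa tChIP, where 17.0% of all regions were. Their median log2 fold change was 1.16. Nrxn2, a presynaptic neurexin, rose by 0.70 on the log2 scale. Cbln2 and Cbln4, the family members known from the forebrain, rose by 1.18 and 1.30. The change at Cbln1, at 0.34, was smaller than that of any of the 5, of which Nrxn2 had the least, though differences between genes were not tested. In tChIP against single ChIP of the Rosa H2B-FLAG line, by contrast, none of the 5 was called higher and 3 were called lower, while Cbln1 was higher. Of all regions 24.7% were called higher and 22.5% lower there.

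Markers of other cells moved in both directions in Camk2a tChIP against Rosa tChIP. Over all regions 14.6% were called lower and 17.0% higher in this comparison. Of the forebrain genes 4 rose and Emx2, a regulator of cortical area identity and progenitors, fell from 103 ± 9.73 to 54.2 ± 4.21 CPM. All 6 excitatory neuron genes rose, among them Camk2a (2.27) and Neurod2 (1.37). Of 6 inhibitory neuron genes with a region 4 fell, among them Dlx2 (-1.30) and Lhx6 (-1.20). The astrocyte genes fell in 6 of 6 (Fgfr3 -1.77, Slc1a3 -1.60) and the endothelial genes in 5 of 5 (Cdh5 -3.01, Pecam1 -2.16). The meningeal and mural genes fell in 4 of 6 (Pdgfrb -2.67, Foxd1 -2.47). On the thalamic list the 2 genes with a region fell (Tcf7l2 -2.78, Lef1 -1.98), while Lhx9 and Calb2 had none. The oligodendrocyte genes fell in 4 of 5 (Olig2 -2.48, Mag -2.19), where Mbp rose by 1.18. The Mbp value is that of 1 region (chr18:82643953-82646548), and other start sites of Mbp were not examined. Olig1 (-0.33, adjusted p = 0.00118) and Olig2 (-0.24, adjusted p = 0.00932, edgeR with Benjamini-Hochberg adjustment) were also lower in Camk2a single than in Rosa single. In that comparison 2.15% of all regions were called, so a smaller difference was present without the tandem step. Both fell more in tChIP by the interaction, where 13.2% of all regions were called lower. It was -0.62 for Olig1 (adjusted p = 0.000194) and -2.25 for Olig2 (adjusted p = 1.22e-32, edgeR with Benjamini-Hochberg adjustment). The summed astrocyte level was 406 to 471 CPM in Rosa tChIP and 196 to 205 CPM in Camk2a tChIP. The meningeal and mural level was 183 to 207 and 62.7 to 70.7 CPM, and that of Tcf7l2 and Lef1 together 230 to 255 and 42.2 to 51.2 CPM. No microglial gene of 6 had a region, and of 6 choroid plexus genes only Kl had one (-0.11, adjusted p = 0.712). Which of these cells carry the mark at Zic1/Zic4, En2, Pax6 and Barhl2, and the part of each list in the falls, was not tested.

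**Figure D4:**
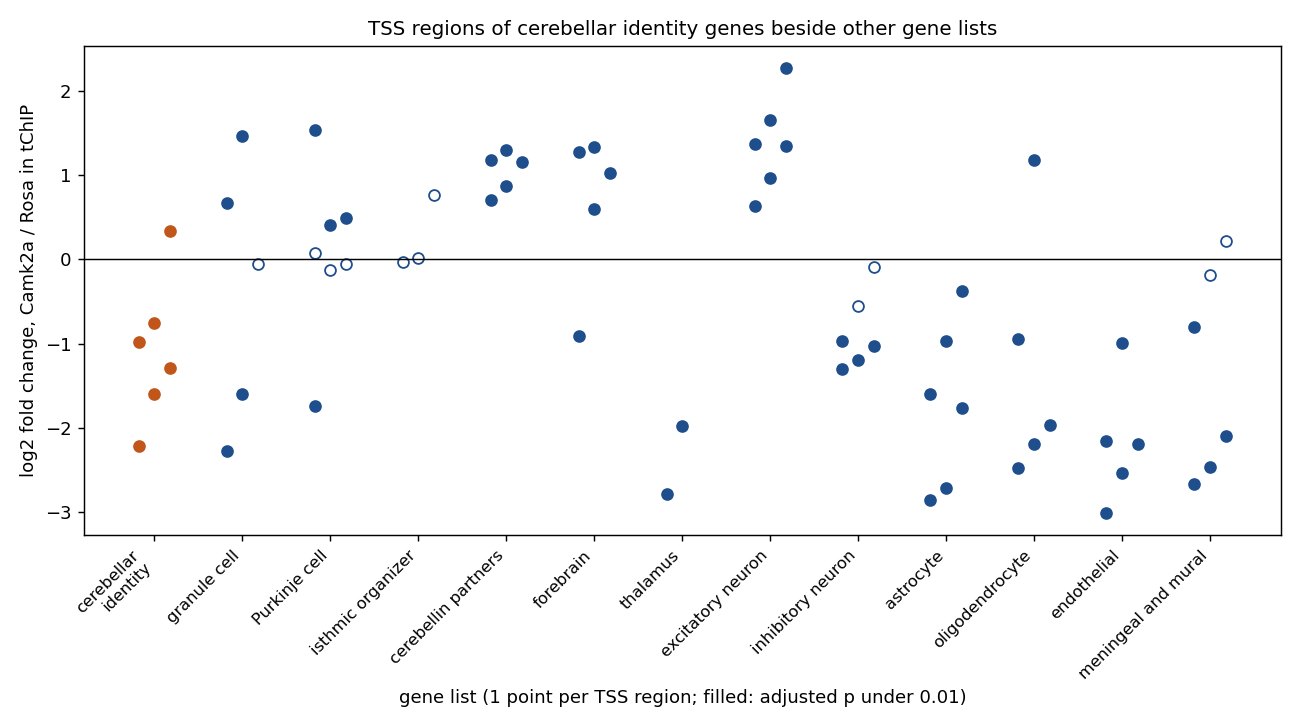
Log2 fold change in Camk2a tChIP against Rosa tChIP (y axis) of the 6 regions of the cerebellar identity genes and of the regions of 12 gene lists (x axis), 1 point per region, filled where the adjusted p was under 0.01. Of the cerebellar identity regions 5 lie between -2.21 and -0.75 and Cbln1 lies at 0.34, among granule cell genes on both sides of 0 and cerebellin partners that all lie above it.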

How the data were processed

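Libraries of H3K4me3 ChIP-Seq, single and tandem, came from mouse cerebral cortex. Before depositing, the authors quality-trimmed reads (FASTX Toolkit), discarded those matching repeats (Bowtie2 2.1.0), aligned the remainder to mm9 (Bowtie 1.0.0), suppressed duplicates (samtools), called peaks (MACS) and counted reads within peaks (bedtools 2.17.0). The deposited values are raw read counts for the 12 H3K4me3 libraries on 1 list of 17993 regions. The 12 input and FLAG libraries of the series were not used here. Removal of repeats and of duplicates can lower counts in repeat-rich or very strongly marked regions.

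Groups were taken from the labels. Start sites were the 5′ ends of transcripts in GENCODE release M1 on mm9, and a region was assigned to every gene whose start site it overlapped. Each comparison of 2 groups was fitted to all 17993 regions of its own 6 libraries in edgeR 4.0.16 (R 4.3.3) with TMM factors, glmQLFit and glmQLFTest, no filter and no covariate, and the interaction was fitted to all 12 libraries. P-values were adjusted by Benjamini-Hochberg over all regions, and a region was called at an adjusted p under 0.01, the threshold of the study. SEs were obtained by dividing each log2 fold change by the root of its F statistic, and 95% intervals were 1.96 SEs on either side. CPM used TMM factors over the 12 libraries and serves for display. The labels number 3 replicates a group but do not say whether these came from separate lysates, or whether single and tandem libraries of 1 number share one, so p-values measure only the spread between libraries, which may be technical in part. Replicates of a group differed by at least sampling noise (chi-square per degree of freedom 1.03 to 1.09). The fit was tested on simulated counts.

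The genes, the 15 lists (109 genes, 62 with a region) and the tests were chosen with earlier results of these data known. Named genes were every region of the 10 genes and, from each list, at most 2 genes in each direction with the lowest adjusted p in Camk2a tChIP against Rosa tChIP, with markers used for the tissue check. Etv1, Cbln4 and regions near the genes were named after their values were seen. For a list gene with more than 1 region, only the region with the highest total count was used. Ppp1r17 was not found by name in the annotation. Some genes of the lists and some promoter windows are not reported here, and the counts of the lists leave those genes out. Sequences were read from the mm9 assembly, and CG was counted on 1 strand, since it reads the same on both. The alternatives were DESeq2 1.42.0 and its size factors, library totals, a filter on low counts, a threshold of 0.05, a rule of 1000 bp around start sites, all 12 libraries in 1 fit, a replicate block and leaving out each library.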

Additional observations from a re-analysis of the deposited data

Results flagged for a closer look

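In 6 regions the effect of the line differed between tChIP-Seq and single ChIP-Seq by the test of the interaction over 12 libraries (edgeR, Benjamini-Hochberg adjustment), given as the line effect in tChIP minus that in single ChIP on the log2 scale. The difference was -2.22 at Zic1/Zic4 (adjusted p = 1.23e-33) and -2.12 at the neighbouring region within 1000 bp of Zic4 start sites (1.08e-11). It was -1.90 at upstream Pax6 (1.49e-08), -1.12 at En2 (6.35e-09) and -0.91 at downstream Pax6 (2.17e-07). Cbln1 was the single region of these in which it was positive, at 0.39 (0.00807), and that call was lost under most of the alternatives given below. The single ChIP-Seq libraries of the lines overlapped in 5 of these regions, and at En2 they stood slightly apart without passing the test.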

How the results depend on the processing

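The counts of regions called among the 6 were 6, 0, 6, 3 and 5 in the order tChIP line, single ChIP line, tChIP against single in Rosa H2B-FLAG, the same in Camk2a H2B-FLAG, and interaction. Leaving out 1 library gave 4 to 6, 0 to 0, 6 to 6, 3 to 3 and 4 to 5. With a filter that drops the 40% least covered regions, 3 of the 6 were still tested (Zic1/Zic4, Cbln1 and downstream Pax6), and 3 were called in the tChIP line comparison, 3 in Rosa H2B-FLAG and 2 in the interaction, because fewer regions were tested and Cbln1 missed the threshold in the last. Counting regions within 1000 bp of start sites gave 8 of 10 in the tChIP line comparison (1 higher, 7 lower), 0 in single ChIP, 8 in Rosa H2B-FLAG, 5 in Camk2a H2B-FLAG and 6 in the interaction. DESeq2 called 4 in the tChIP line comparison, without Barhl2 and Cbln1.

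The calls of Zic1/Zic4, En2 and both Pax6 regions in the tChIP line comparison held under every alternative that tested them (log2 fold changes -2.39 to -2.13, -1.39 to -1.21, -1.83 to -1.46 and -1.05 to -0.91). Barhl2 lost its call in 5 of 12 alternatives (adjusted p 0.00194 to 0.0608), Cbln1 in 5 of 13 (0.000824 to 0.03), and the Cbln1 interaction in 12 of 18 (0.00229 to 0.0535). The causes were not tested.

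Signs turned only where nothing was called. In single ChIP-Seq, Zic1/Zic4 became 0.02 with library totals, 0.03 with the filter, 0.03 without Rosa single replicate 2 and 0.05 without Camk2a single replicate 2. Leaving out 1 library, the range was -0.08 to 0.05 for Zic1/Zic4, -0.62 to 0.02 for Barhl2 and -0.14 to 0.01 for Cbln1, the last 2 upper values without Camk2a single replicate 3. Downstream Pax6 in Camk2a H2B-FLAG became 0.00 with the filter. The Pax6 region over no start site gave -0.06 to 0.42 in the tChIP line comparison, with the lowest value without Rosa tChIP replicate 3, and the interaction at Khnyn became 0.03, 0.00 and 0.01 without Rosa tChIP replicate 3, Camk2a single replicate 1 and Camk2a tChIP replicate 3.

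With the replicate block the counts were 6, 0, 6, 3 and 5. Deviations of libraries with the same number correlated between -0.018 and 0.039 over 14350 regions. Replicates differed little beyond sampling noise (chi-square per degree of freedom 1.03 to 1.09), so these correlations cannot show whether libraries share a lysate. The numbers were not treated as pairs. With library totals the share of higher among called regions went from 53.9% to 43.7% in the tChIP line comparison, from 43.3% to 77.3% in single ChIP, from 52.3% to 67.7% in Rosa H2B-FLAG and from 50.9% to 38.9% in the interaction, and the median of all regions shifted by -0.07, 0.03, 0.10 and -0.10. Depth limits Barhl2, the En1 neighbour and the Pax6 region over no start site, with 6 to 32, 7 to 24 and 5 to 26 reads a library.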
